A study of Danio rerio with 6 samples.

Results

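The cell cycle and DNA replication genes of the zebrafish array were followed across 6 single arrays of embryonic vascular development. Members were the probes whose deposited description named a cyclin (cyclins T and M left out), a cyclin-dependent kinase, a cell division cycle protein, the minichromosome maintenance (MCM) proteins, proliferating cell nuclear antigen, replication factor C, replication protein A or a polo-like kinase. The rule also asked for the origin recognition complex, DNA polymerase, DNA primase and aurora kinase, and no description named these. It found 87 of 14067 zebrafish probes, for 36 genes. Of these, 35 probes (12 genes) belonged to DNA replication and 27 probes (10 genes) to mitosis. Another 6 probes (6 genes) formed a G1 group, of cyclins D1, E, G1 and G2 and genes described as inhibitors of cyclin-dependent kinases. Cyclins G1 and G2 were placed in it by their description, not for a role in the G1 phase. The other 19 probes (8 genes) covered remaining names such as cdc5l, cdc37, cdc42 and the transcription kinases cdk8 and cdk9. Genes with several probes have them lettered here in order of mean signal, so that mcm2 probe A is the brightest of 6 mcm2 probes.

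The RNA of 2 arrays was that of whole embryos, aged 18 and 24 hours post fertilisation (hpf). The other 4 carried RNA of fluorescent sorted cells. Of these, 3 came from the line Tg(Fli1:EGFP), sampled at 18, 24 and 28 hpf, and 1 from Tg(Flk:GRCFP) embryos, which the title and series design give as 18 hpf and the sample description as 24 hpf. None of the embryos had been treated, and the whole-embryo arrays carry no line name of their own, although the extraction protocol names Tg(Fli1:EGFP) for all samples. In the Fli1 line, regulatory sequence of fli1 marks endothelium but also blood cells and part of the neural crest. The Flk reporter is named for the endothelial receptor gene kdrl. Each condition had 1 array, so a difference between a pair of arrays has no replicate check. In these bulk samples, fewer dividing cells and less RNA per dividing cell cannot be told apart.

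DNA replication begins when the MCM2 to MCM7 helicase is loaded at origins. Replication factor C (RFC) then places the sliding clamp PCNA, which holds the polymerases on DNA, while replication protein A (RPA) covers the unwound strand. Entry into mitosis is driven by cdk1 with cyclins A and B and by polo-like kinase 1, and exit is driven by the ubiquitin ligase that cdc20 and fzr1 activate. Early zebrafish embryos divide quickly and carry abundant maternal copies of many of these messages.

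Signals are given as log2 intensity after background correction and quantile normalization. Above background means here that the spot, less its local background, was brighter than the 95th percentile of the Arabidopsis control spots on that array. Between 24.7% and 42.6% of 13999 unflagged zebrafish probes were above background per array, the lowest on the Fli1 array at 18 hpf and the highest on the Flk array. The difference of control spots between a pair of arrays had an SD of 0.35 to 0.45 on the log2 scale. The summed signal of 5 endothelial markers (fli1, kdrl, lmo2, tal1 and tek) was 11.00 and 10.80 in whole embryos and 11.66 to 12.35 on the 4 sorted arrays, with 3 or 4 of them above background in whole embryos and 4 or 5 in sorted cells. That of 6 erythroid markers was 10.91 and 13.81 in whole embryos at 18 and 24 hpf. It was 14.46, 16.14 and 16.59 in Fli1 cells at 18, 24 and 28 hpf and 13.22 in Flk cells. That of 7 epidermal markers was 16.50 and 17.08 in whole embryos and 13.98 to 14.76 in sorted cells, where 5 of the 7 were above background. For 4 muscle markers the summed signal was 11.10 and 13.60 in whole embryos and 11.83 to 12.24 in sorted cells. For 3 neural markers above background at least once it was 11.16 and 11.06 in whole embryos and 10.95 to 11.80 in sorted cells, the highest in Fli1 cells at 28 hpf. The summed signals of muscle and neural markers were thus not lower in all sorted cells than in whole embryos. Muscle markers above background numbered 2 and 4 in whole embryos and 1 to 3 in sorted cells. Neural markers above background numbered 3 on each whole-embryo array and 2 on each sorted array. The summed signal of 4 leukocyte markers was 10.22 and 11.97 in whole embryos, 11.64, 13.62 and 13.91 in Fli1 cells, and 11.20 in Flk cells. The part of these other cell types in the results on members was not tested.

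Most members were measurable. On at least 1 array 65 of 87 member probes (74.7%, 31 genes) were above background, against 54.3% of all zebrafish probes, and 20 members (23%) were above it on all 6 arrays, against 17.8%. By group, 31 of 35 replication probes, 15 of 27 mitosis probes, 6 of 6 G1 probes and 13 of 19 others were above background at least once. The 22 members that never were included both cdc27 probes, both cyclin B2 probes, both cdc42 probes, polo-like kinase 4, mcm3 and 4 of 8 cyclin A1 probes. By array, 48 and 51 members were above background in whole embryos at 18 and 24 hpf, 29, 47 and 41 in Fli1 cells at 18, 24 and 28 hpf, and 62 in Flk cells. The share of members followed the share of all probes in having its lowest value on the Fli1 array at 18 hpf (33.3%) and its highest on the Flk array (71.3%). No member was saturated or flagged on any array.

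**Figure D1:**
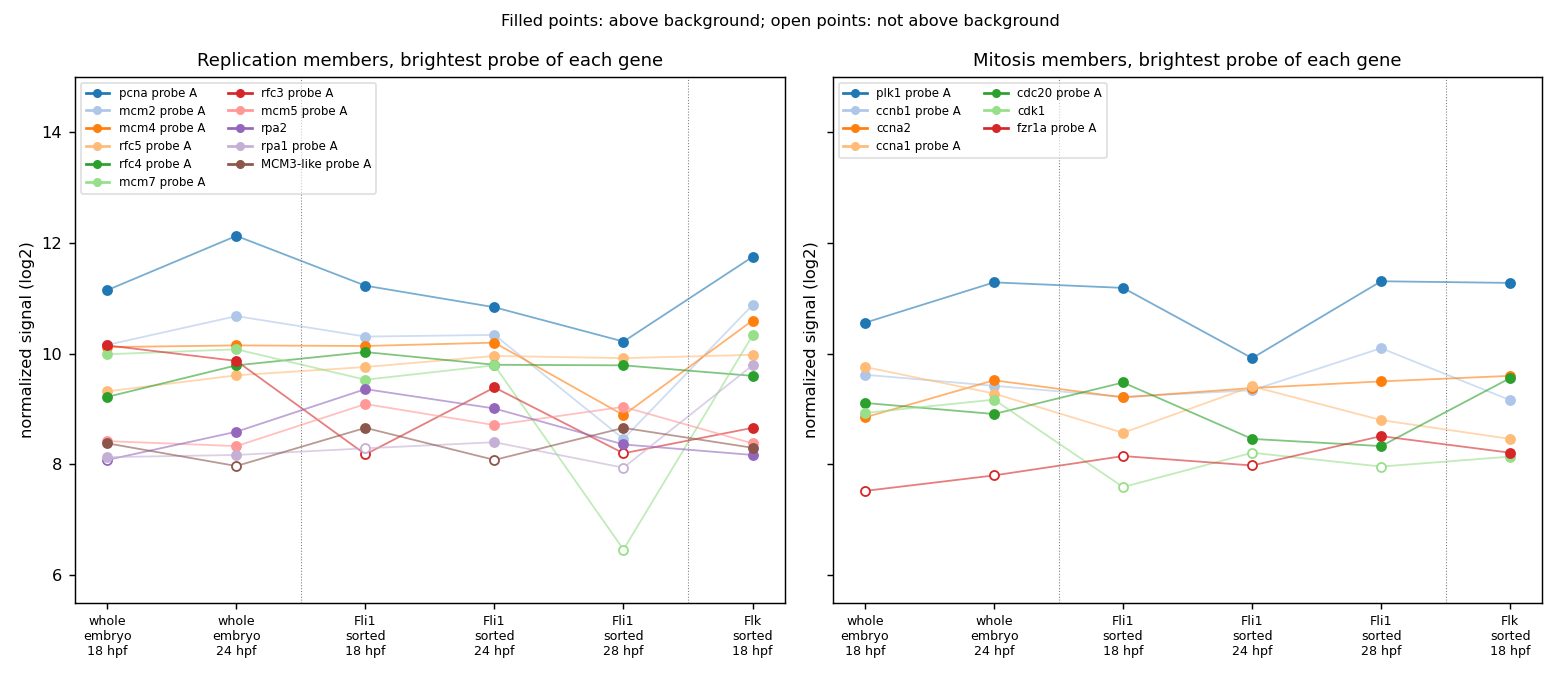
Normalized signal (log2) of the brightest probe of each replication gene (left) and mitosis gene (right) on each of the 6 arrays, for genes above background at least once. Filled points are above background, open points are not, and lines only join the values of 1 probe. The mcm2, mcm4 and mcm7 probes are lowest on the Fli1 array at 28 hpf, where mcm7 reads 6.46, while plk1 probe A is lowest on the Fli1 array at 24 hpf.

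The MCM genes encode subunits of the replicative helicase. On mcm2 probe A the signal was 10.16 and 10.68 in whole embryos at 18 and 24 hpf, 10.31, 10.34 and 8.46 in Fli1 cells at 18, 24 and 28 hpf, and 10.88 in Flk cells. On mcm4 probe A it was 10.12 and 10.15 in whole embryos, 10.14, 10.20 and 8.89 in Fli1 cells, and 10.60 in Flk cells. On mcm7 probe A it was 9.99 and 10.08 in whole embryos, 9.53 and 9.79 in Fli1 cells at 18 and 24 hpf, 6.46 and not above background at 28 hpf, and 10.33 in Flk cells. All 3 probes were thus highest in Flk cells and lowest in Fli1 cells at 28 hpf. The mcm5 probes did not share this order: probe A read 8.42 and 8.33 in whole embryos, 9.09, 8.71 and 9.04 in Fli1 cells, and 8.38 in Flk cells. Of 3 probes described as MCM3-like, probe A stayed between 7.97 and 8.66, and probe B was above background in whole embryos alone (8.82 and 8.31).

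Probes of the same MCM gene did not move together. On mcm2, probe C shared with probe A its lowest value at 28 hpf, but not the rest of its order. It read 9.66 and 9.99 in whole embryos, 8.65, 9.35 and 7.46 in Fli1 cells, the last not above background, and 9.42 in Flk cells, so that all 4 sorted arrays lay below both whole-embryo arrays. The same held for 16% of all probes tested. In contrast, mcm2 probe B read 8.81 and 9.54 in whole embryos, 9.50, 9.75 and 9.82 in Fli1 cells, and 9.59 in Flk cells, and so had its highest value on the array where probes A and C had their lowest. On mcm4, probe C was likewise low at 28 hpf (7.32, not above background, against 8.89 at 24 hpf), while probes B, D and E had their highest value there (9.30, 8.86 and 8.98). On mcm4 probes B, D and E all 4 sorted arrays lay above both whole-embryo arrays, as for 20.9% of all probes tested. Some of these readings on probes D and E were not above background. The position of each oligonucleotide in its transcript was not used here, so the part of the transcript that each probe reads was not tested.

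**Figure D2:**
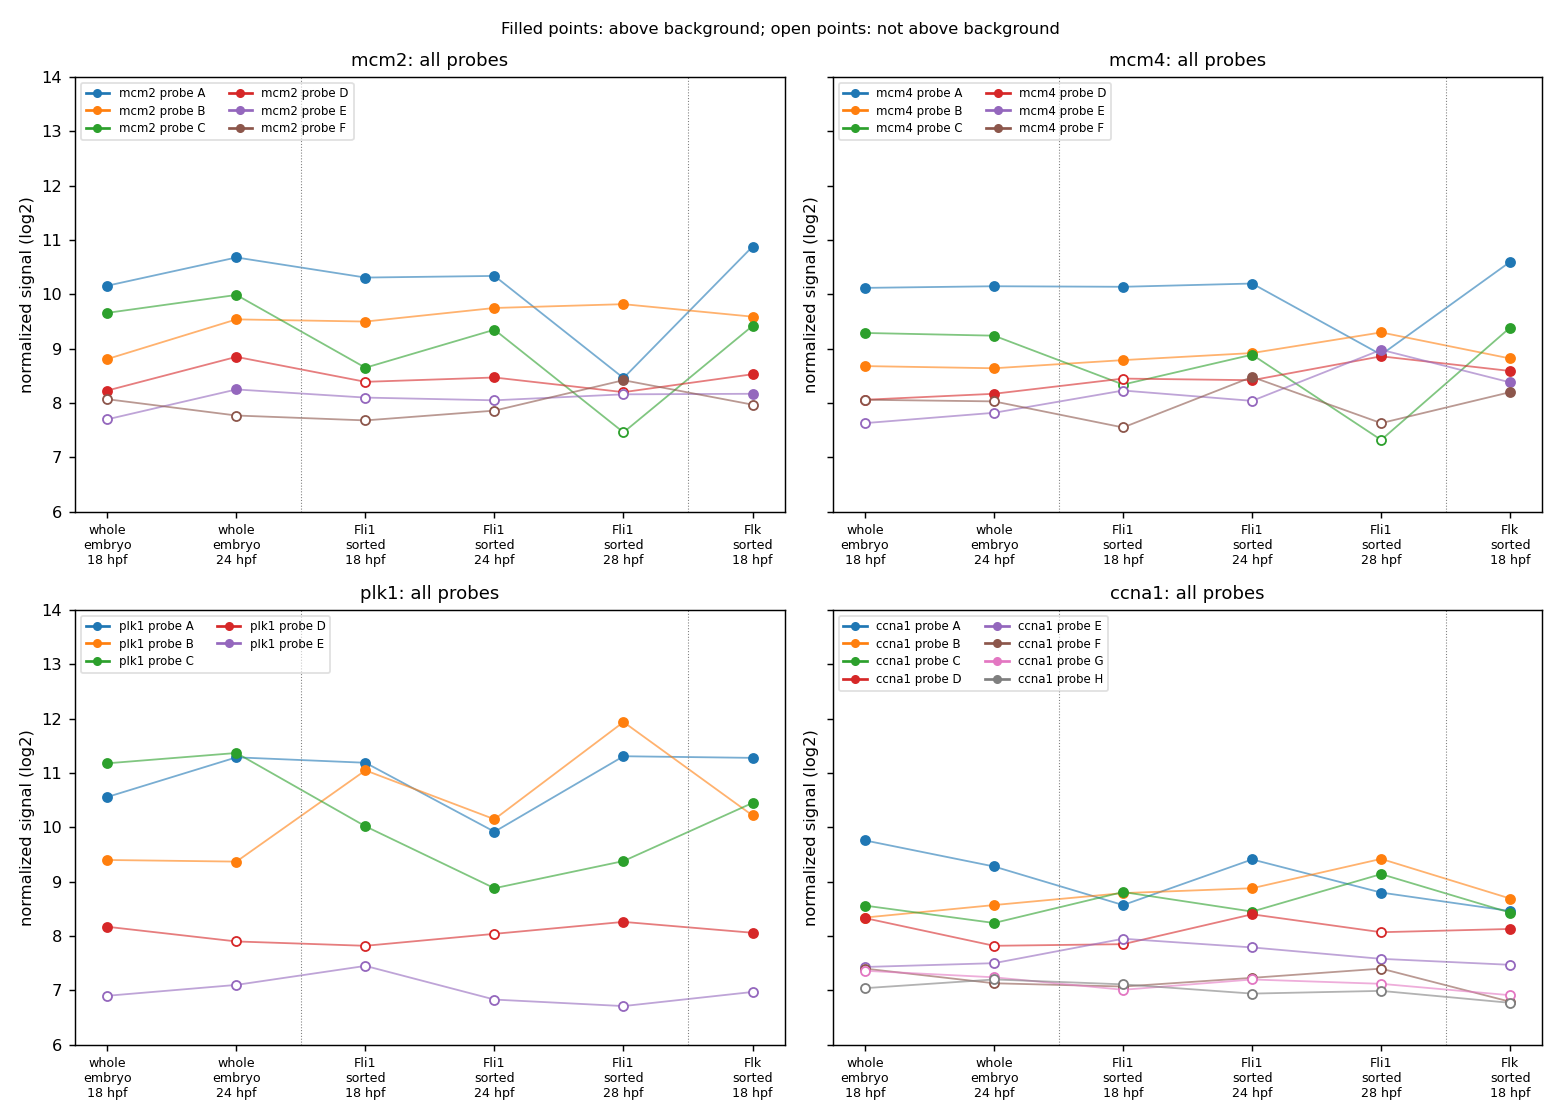
Normalized signal (log2) of every probe of mcm2 (6 probes), mcm4 (6), plk1 (5) and ccna1 (8) on the 6 arrays. Filled points are above background, open points are not, and lines only join the values of 1 probe. On the Fli1 array at 28 hpf, mcm2 probe A reads 8.46 and mcm2 probe B 9.82, and in whole embryos at 24 hpf plk1 probe B reads 9.37 and plk1 probe C 11.37.

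PCNA, the sliding clamp, was measured by a pair of probes that agreed on the highest and lowest arrays. On pcna probe A the signal was 11.15 and 12.13 in whole embryos, 11.23, 10.84 and 10.22 in Fli1 cells at 18, 24 and 28 hpf, and 11.75 in Flk cells. On pcna probe B it was 11.06 and 12.01 in whole embryos, 10.65, 10.74 and 9.42 in Fli1 cells, and 11.52 in Flk cells. Both were highest in whole embryos at 24 hpf and lowest in Fli1 cells at 28 hpf, and the sorted and whole-embryo arrays overlapped on each.

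Probes of the clamp loader subunits differed among themselves, also within a gene. On rfc3 probe A the signal was 10.15 and 9.87 in whole embryos, 8.18, 9.39 and 8.20 in Fli1 cells (at 18 and 28 hpf not above background), and 8.66 in Flk cells, so that every sorted array lay below both whole-embryo arrays. On rfc4 probe A it stayed between 9.22 and 10.03 over all 6 arrays. On rfc5 probe A whole embryos read 9.32 and 9.61 and sorted cells 9.76 to 9.98. On that probe the sorted arrays thus all lay above both whole-embryo arrays, as they did for 20.9% of all probes tested. As on rfc3 probe A, every sorted array lay below both whole-embryo arrays on rfc3 probe B, rfc4 probe B and rfc5 probe C, but not on rfc5 probe B. The same held for 16% of all probes tested. Fli1 readings were not above background at 18 and 24 hpf on rfc3 probe B, and at 18 and 28 hpf on rfc4 probe B and rfc5 probe C. On rfc4 probe B whole embryos read 8.48 and 8.83 and sorted cells 7.59 to 8.45. On rfc5 probe C whole embryos read 8.39 and 8.82 and sorted cells 7.37 to 8.30. RPA, which binds single-stranded DNA, had its own pattern. On rpa1 probe A the signal was 8.13 and 8.17 in whole embryos, 8.29, 8.40 and 7.94 in Fli1 cells, and 9.79 in Flk cells, and probe B was also highest in Flk cells (9.20, against 7.62 to 8.82 elsewhere), while probe C was not (8.14, within the 8.02 to 8.43 of the other arrays). The rpa2 probe read 8.08 and 8.59 in whole embryos, 9.36, 9.01 and 8.36 in Fli1 cells, and 8.17 in Flk cells.

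Polo-like kinase 1, which acts from mitotic entry to cytokinesis, was above background on all 6 arrays on 3 of 5 probes, and these probes disagreed. On plk1 probe A the signal was 10.56 and 11.29 in whole embryos, 11.19, 9.92 and 11.31 in Fli1 cells, and 11.28 in Flk cells. On plk1 probe B it was 9.40 and 9.37 in whole embryos, 11.05, 10.15 and 11.94 in Fli1 cells, and 10.22 in Flk cells, with every sorted array above both whole-embryo arrays. On plk1 probe C it was 11.18 and 11.37 in whole embryos, 10.02, 8.88 and 9.38 in Fli1 cells, and 10.45 in Flk cells, with every sorted array below both. Of all probes tested, 20.9% had every sorted array above both whole-embryo arrays and 16% had every one below both. Within the Fli1 series all 3 plk1 probes were lowest at 24 hpf. A direction between sorted cells and whole embryos therefore could not be assigned to plk1 as a gene.

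The mitotic kinase cdk1, described by its older name cell division cycle 2, had 1 probe. It read 8.93 and 9.17 in whole embryos and 7.59, 8.21 and 7.96 in Fli1 cells, all 3 of these not above background, with 8.14 in Flk cells. The cyclins that pair with cdk1 did not share this order. Cyclin B1 probe A (ccnb1) read 9.62 and 9.42 in whole embryos, 9.22, 9.34 and 10.10 in Fli1 cells, and 9.16 in Flk cells. Cyclin A2 (ccna2), the somatic A-type cyclin, read 8.85 and 9.52 in whole embryos and 9.21 to 9.60 in sorted cells. Cyclin A1, known in vertebrates as a germ-line and early embryonic cyclin, read 9.76 and 9.28 on ccna1 probe A in whole embryos, 8.57, 9.41 and 8.80 in Fli1 cells, and 8.46 in Flk cells. Its probes B and C, also above background on all 6 arrays, were highest in Fli1 cells at 28 hpf (9.42 and 9.14). On probe B whole embryos read 8.34 and 8.57 and sorted cells 8.69 to 9.42, so no direction could be assigned to ccna1 as a gene. The anaphase activator cdc20 on probe A read 9.11 and 8.91 in whole embryos, 9.48, 8.46 and 8.33 in Fli1 cells, and 9.56 in Flk cells. Its relative fzr1a was above background on 1 of 3 probes, in Fli1 cells at 28 hpf (8.51) and in Flk cells (8.21).

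Within the G1 group as defined here, cyclin G1 (ccng1, a target of p53) varied most. It read 9.41 and 10.66 in whole embryos, 10.27 and 10.63 in Fli1 cells at 18 and 24 hpf, 7.71 and not above background in Fli1 cells at 28 hpf, and 10.49 in Flk cells. Cyclin D1 (ccnd1) and cyclin E (ccne1), which drive the passage from G1 to S phase, were not above background in either whole-embryo array or in Fli1 cells at 18 hpf. In whole embryos cyclin D1 read 7.87 and 8.03 and cyclin E 6.78 and 7.71. Above background on sorted arrays alone were 9 of 65 members, against 1361 of 7602 probes. Cyclin D1 read 8.43, 8.26 and 8.27 in Fli1 cells at 24 and 28 hpf and in Flk cells, and cyclin E read 8.64 and 8.01 in Fli1 cells at 28 hpf and in Flk cells. The p27 gene cdkn1bb was above background in Fli1 cells at 24 hpf (8.29) and in Flk cells (8.56). Among the other members, the splicing factor gene cdc5l on probe A read 10.46 and 9.71 in whole embryos, 9.02, 8.35 and 8.02 in Fli1 cells, and 9.10 in Flk cells, and cyclin F (ccnf) on probe A read 8.27 and 8.05 in whole embryos, 9.19, 8.54 and 9.77 in Fli1 cells, and 8.64 in Flk cells.

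Over all 6 arrays, no member differed between the sorted and whole-embryo fractions after adjustment. Limma was fitted on 7602 probes above background at least once, comparing 4 sorted with 2 whole-embryo arrays. Of 65 members tested, 0 were higher and 0 lower at a Benjamini-Hochberg adjusted p under 0.05, where 0.0658% of all probes were higher and 0.842% lower. At an unadjusted p under 0.05, 2 members were higher and 7 lower (3.08% and 10.8%), and 7.93% and 10.7% of all probes were. The smallest adjusted p of a member was 0.149, and the median difference was -0.02 over the 65 members and 0.04 over all probes. All 4 sorted arrays lay below both whole-embryo arrays for 13 members (20%) and above both for 12 (18.5%), where 16% and 20.9% of all probes did. These shares lay near those of all probes, apart from the lower share of members at an unadjusted p on the higher side. The spread in this fit mixes stage, line and array error.

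The 10 largest differences in that fit are given with their limma adjusted p as they stand. On the log2 scale, sorted minus whole embryo was -1.59 for plk1 probe C (SE 0.44, adjusted p = 0.154), -1.46 for cdc5l probe A (SE 0.40, adjusted p = 0.154), -1.40 for rfc3 probe A (SE 0.38, adjusted p = 0.154) and -1.07 for cdk1 (SE 0.28, adjusted p = 0.149). MCM3-like probe B, cdc5l probe B, mcm2 probe C, mcm7 probe A and pcna probe B differed by -1.15, -1.14, -1.10, -1.01 and -0.95, with limma adjusted p between 0.16 and 0.542. Without the Fli1 array at 28 hpf, mcm7 probe A differed by -0.15, mcm2 probe C by -0.68 and pcna probe B by -0.57. Without the whole-embryo array at 24 hpf pcna probe B differed by -0.48, and without that at 18 hpf by -1.43. The 1 positive difference among the 10 was that of plk1 probe B, at 1.46 (SE 0.50, adjusted p = 0.212). With the authors' scaled intensity, plk1 probe C (-2.50) and cdk1 (-1.17) passed the threshold as lower. With the 4 stage-matched Fli1 and whole-embryo arrays and stage as a block, cdk9 probe A passed as lower and no other member did. Its Fli1 readings in that fit, 6.79 and 6.93, were not above background, and the sorted arrays left out read 9.67 (Fli1, 28 hpf) and 8.77 (Flk). Its log2 differences from whole embryos at 18 and 24 hpf were -2.02 and -1.43, but -0.84 and -0.51 with the authors' scaled values.

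Replication and mitosis members were close to each other between Fli1 cells and whole embryos of the same stage. At 18 hpf the Fli1 signal of 3 members was 2-fold higher and that of 12 was 2-fold lower, which is 4.62% and 18.5% of 65, against 9.26% and 13.4% of all probes. Of the 12 lower, 3 were replication probes (9.68% of 31), 3 mitosis probes (20% of 15) and 6 probes of the other members (46.2% of 13). At 24 hpf 0 were higher and 7 lower (10.8%), against 3.99% and 8.6% of all probes. Of these 7, 2 were replication probes (6.45%), 2 mitosis probes (13.3%) and 3 probes of the other members (23.1%). The median difference at 18 hpf was 0.08 for replication and 0.26 for mitosis members, and at 24 hpf it was -0.08 for both, with -0.01 and 0.08 for all probes. With arrays scaled to the 75th percentile the mitosis median at 18 hpf was -0.03, and with the authors' scaled values it was -0.28. Where the dimmer array was not above background, the fold is given as a bound against the lowest signal above background there, and by that measure 7 of the 12 lower members at 18 hpf and 5 of the 7 at 24 hpf were still 2-fold lower.

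At 18 hpf the lower members included rfc3 probe A (at least 3.02-fold), cdc5l probe A (2.71-fold), cyclin I probe A (2.48-fold), ccna1 probe A (2.29-fold) and plk1 probe C (2.24-fold). The higher ones were plk1 probe B (3.13-fold), rpa2 (at least 2.38-fold) and ccnb1 probe B (at least 1.99-fold). The log2 difference of plk1 probe B, 1.65, was 0.72 with arrays scaled to the 75th percentile and 0.48 with the authors' scaled values, which ended its call, and with the latter 0 members were 2-fold higher. At 24 hpf both pcna probes were lower, by 2.44-fold and 2.41-fold, as were plk1 probe C (5.61-fold), plk1 probe A (2.58-fold) and cdc5l probe A (2.57-fold). With the authors' scaled values the log2 differences were larger, -1.94 and -1.96 for pcna against -1.29 and -1.27, and -3.21 for plk1 probe C against -2.49. The MCM members stayed within 2-fold at 24 hpf, and at 18 hpf mcm2 probe C was 2.01-fold lower and MCM3-like probe B at least 1.2-fold lower, its reading in Fli1 cells being not above background.

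Flk cells were set against whole embryos and Fli1 cells of 18 hpf. Against whole embryos, 4 members were 2-fold higher and 5 lower (6.15% and 7.69%), against 7.14% and 6.96% of all probes. The higher ones were rpa1 probe A (3.17-fold), rpa1 probe B (at least 2.13-fold), cyclin G1 (2.11-fold) and cyclin E, which was not above background in whole embryos. With the authors' scaled values the log2 difference of cyclin E was 0.17, against 1.23, and that of cyclin G1 was 0.87, against 1.08. Against Fli1 cells, 5 were higher and 1 lower (7.69% and 1.54%), against 5.6% and 3.31% of all probes. Among them rpa1 probe A was at least 2.36-fold higher and rpa2 2.28-fold lower. Of 31 replication probes 6 read lower in Flk than in Fli1 cells (19.4%) and 7 of 15 mitosis probes did (46.7%), where 46.3% of all probes did, and the medians were 0.28 and 0.07 against 0.05. The Flk array also had the larger share of all probes above background (42.6%, against 24.7%), and the part of that difference in these medians was not tested. Scaled to the 75th percentile, 8 members were higher and 0 lower, and the authors' scaled values gave 9 and 0. With the Flk array at the stage of its sample description, 5 members were higher and 0 lower than in Fli1 cells of 24 hpf (5.37% and 2.82% of all probes). In the same way, 2 were higher and 3 lower than in whole embryos of 24 hpf (5.83% and 6.89% of all probes). The medians against Fli1 cells of 24 hpf were 0.11 for replication and 0.02 for mitosis, with -0.02 for all probes.

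Between 18 and 24 hpf few members differed by stage. In whole embryos 1 member was 2-fold higher at 24 hpf, cyclin G1 (2.38-fold), and 1 lower, cyclin I probe A (2.83-fold), which is 1.54% each way against 6.52% and 3.97% of all probes. In Fli1 cells 3 were higher and 4 lower (4.62% and 6.15%), against 5.29% and 3.51% of all probes. The 4 lower ones were mitosis members, namely plk1 probe A (2.4-fold), plk1 probe C (2.21-fold), cdc20 probe A (2.03-fold) and ccnb1 probe B (at least 1.8-fold). Scaled to the 75th percentile, or with the authors' scaled values, 0 members were 2-fold lower in this pair. The medians for replication and mitosis were 0.08 and 0.09 in Fli1 cells, with 0.03 for all probes. In whole embryos they were 0.27 and 0.19, with -0.05 for all probes, and 32.3% of replication probes read lower at 24 hpf where 54.2% of all probes did. With 1 probe per gene the order of the whole-embryo medians was reversed, at 0.08 for replication and 0.24 for mitosis. Both pcna probes came close to 2-fold higher in whole embryos at 24 hpf (1.98-fold and 1.92-fold).

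**Figure D3:**
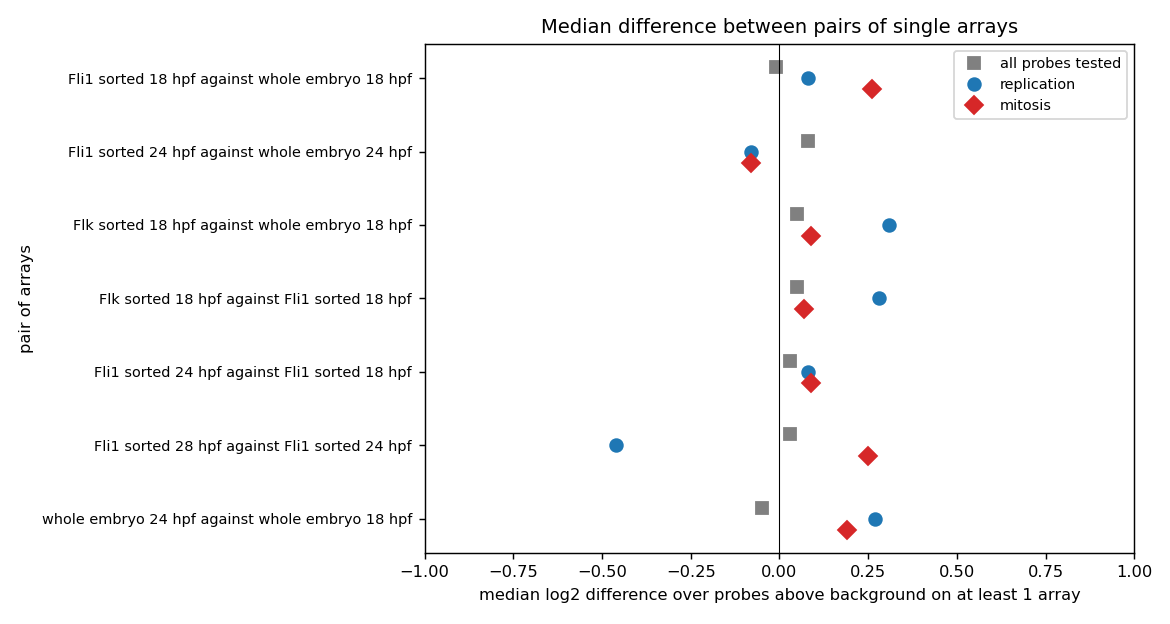
Median log2 difference (first array minus the second) for 7 pairs of single arrays, over all probes tested (grey squares, 7602), replication probes (blue circles, 31) and mitosis probes (red diamonds, 15). The groups lie furthest apart for Fli1 cells at 28 against 24 hpf, at -0.46 and 0.25.

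Replication and mitosis members lay furthest apart between Fli1 cells of 28 and 24 hpf. The median difference was -0.46 over 31 replication probes and 0.25 over 15 mitosis probes, against 0.03 over all probes, a gap of -0.71. Over the other 6 pairs the gap ran from -0.17 to 0.21. At 28 hpf 7 replication probes of 5 genes were 2-fold lower and 0 higher (22.6%, against 11.4% of all probes lower), and 2 mitosis probes, both of plk1, were 2-fold higher and 0 lower (13.3%, against 7.29% of all probes higher). Both plk1 calls ended when the arrays were scaled to the 75th percentile or by the authors. Of replication probes 20 of 31 read lower at 28 hpf, of mitosis probes 4 of 15, and of all probes 48.3%. The comparison describes 1 array against 1 array and has no test.

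The lower replication probes were mcm2 probe A (3.67-fold), mcm2 probe C (at least 2.14-fold), mcm4 probe A (2.47-fold), mcm4 probe C (at least 1.55-fold), mcm7 probe A (at least 2.9-fold), pcna probe B (2.48-fold) and rfc3 probe A (at least 2.2-fold). The log2 difference of mcm7 probe A was -3.33, but -1.78 with the authors' scaled values, where mcm4 probe C was no longer 2-fold lower (-0.95). The higher mitosis probes were plk1 probe B (3.47-fold) and plk1 probe A (2.62-fold), and plk1 probe C differed in the same direction by 0.50 on the log2 scale. On that scale probe B went from 1.79 to 0.95 with arrays scaled to the 75th percentile and to 0.92 with the authors' scaled values. Probe A went from 1.39 to 0.72 and 0.80, so that neither was then 2-fold higher. Outside these groups cyclin G1 was at least 5.2-fold lower, cdk9 probe A at least 2.66-fold higher and ccnf probe A 2.34-fold higher. Under either of these scalings 1 member was 2-fold higher, cdk9 probe A (log2 differences of 2.36 and 1.43). Neither group moved as a whole: both mcm5 probes read slightly higher (0.33 and 0.15) and cdc20 probe A slightly lower (-0.13). Probe A of rfc4 and of rfc5 hardly differed (-0.01 and -0.04). Their other probes read lower at 28 hpf, where none of these was above background. The signal went from 8.45 to 7.59 on rfc4 probe B, 8.95 to 8.22 on rfc5 probe B and 8.30 to 7.37 on rfc5 probe C. The cdk1 probe was not above background on either array.

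**Figure D4:**
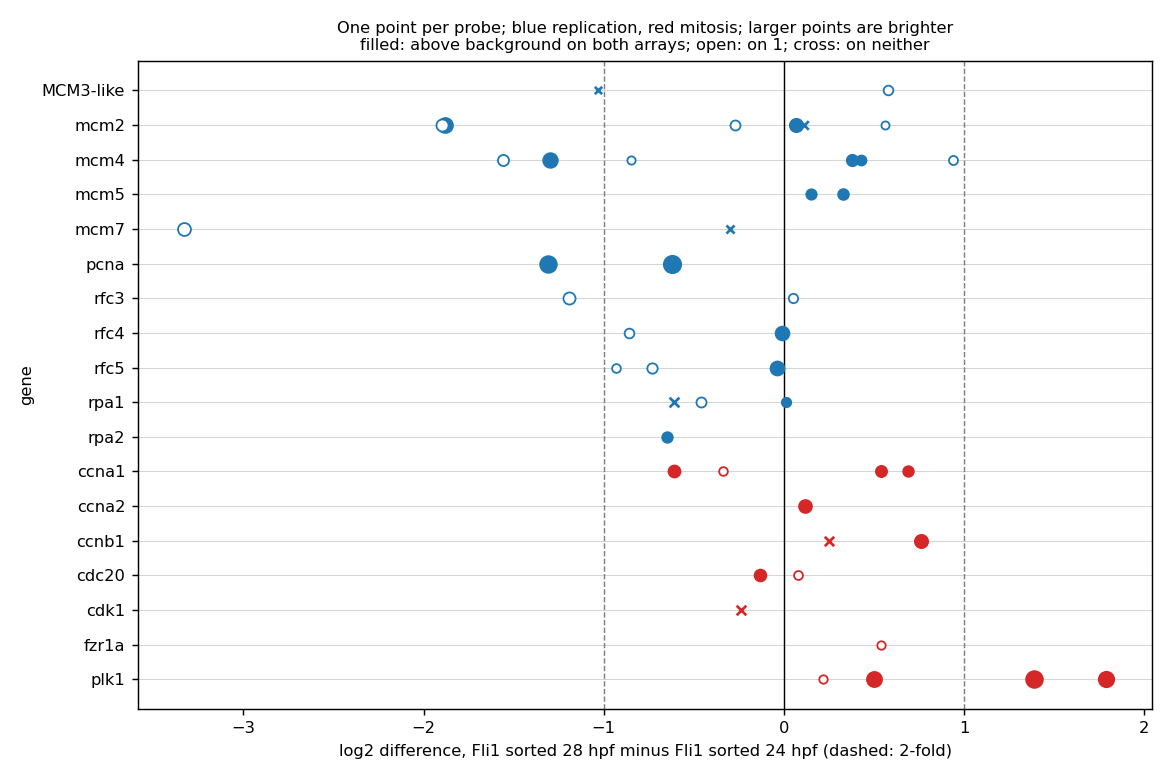
Log2 difference between the Fli1 arrays at 28 and 24 hpf (x axis) for each replication (blue) and mitosis (red) probe, by gene, with larger points for brighter probes. Filled points are above background on both arrays, open points on 1 and crosses on neither, and dashed lines mark 2-fold. The 7 probes counted as 2-fold lower are blue circles, the MCM3-like cross past the line being above background on neither array, and the pair 2-fold higher belongs to plk1.

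The same gap was smaller against other sorted arrays. It was -0.34 when the 28 hpf array was set against Fli1 cells of 18 hpf and -0.53 against Flk cells. With 1 probe per gene these gaps were -0.64 and -0.49. At 28 against 24 hpf the gap stayed between -0.57 and -0.74 under the other scalings, background settings and probe choices. With 1 probe per gene the medians of that pair were -0.62 for replication and 0.12 for mitosis, against 0.03 for all probes. Among probes above background on all 6 arrays, the replication median was -0.04 (9 probes) and the mitosis median 0.54 (9 probes). This filter leaves out probes not above background at 28 hpf, among them mcm7 probe A, and keeps 3 of the 7 lower replication probes. It therefore cannot show which group the gap came from. Against Fli1 cells of 18 hpf, 2 members were 2-fold higher and 11 lower at 28 hpf (7.08% and 8% of all probes). Against Flk cells, 2 were higher and 15 lower (6.85% and 14.4% of all probes). The probes mcm2 A, mcm2 C, mcm4 A, mcm7 A and pcna B were lower in all 3 comparisons, as was cyclin G1. These comparisons share the 28 hpf array, so a low reading there recurs, and the share of all probes lower in all 3 was not counted. Against Fli1 cells of 18 hpf, mcm2 probe A was 3.59-fold lower and mcm2 probe C at least 1.32-fold lower. Against Flk cells mcm2 probe A was 5.34-fold lower. Bright probes of any kind differed often between these arrays, and in both directions. Of 1350 probes with a mean signal of at least 9.5, 30.4% were 2-fold lower and 19.2% 2-fold higher at 28 than at 24 hpf and the median was -0.37, and among them were 7 replication probes with 3 lower and a median of -0.62, and 3 mitosis probes, those of plk1, with 2 higher and a median of 1.39. Of 2166 probes with a mean of 8.5 to 9.5, 13.6% were lower (median 0.12), and 4 of 9 replication probes and 0 of 6 mitosis probes were. Erythroid markers were also at their highest on this array, at a summed signal of 16.59, and their part in the difference was not tested.

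How far the probes of a gene went the same way was counted for each pair, over genes with at least 2 probes above background on either array. The sign was taken whatever the size of the difference. The share over all genes with several probes was not counted, so these counts are no trait of the members. All such probes had the same sign for 6 of 15 genes between Fli1 cells and whole embryos at 18 hpf, and for 10 of 17 at 24 hpf. It was 7 of 14 between Fli1 cells of 28 and 24 hpf, and 6 of 18 between the whole-embryo stages. The pairs of probes for pcna and mcm5 agreed in sign at 28 against 24 hpf, and those of mcm2, mcm4 and ccna1 did not.

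Of 98 further cell cycle genes on a list, 42 were on the array and 29 were measured, each by its brightest probe. By limma 0 of 29 were higher and 0 lower at an adjusted p under 0.05 (smallest adjusted p = 0.151). At an unadjusted p under 0.05, 3 of 29 were higher and 4 lower, where 7.93% and 10.7% of all probes were. In Fli1 cells against whole embryos 3 of 29 were 2-fold higher and 4 lower at 18 hpf, against 9.26% and 13.4% of all probes. At 24 hpf 0 were higher and 2 lower, against 3.99% and 8.6% of all probes. The medians were 0.00 at 18 hpf and -0.36 at 24 hpf. The kinetochore gene ndc80 was lower at both stages, with 10.32 and 9.72 in whole embryos, 8.85, 8.72 and 8.18 in Fli1 cells, and 9.45 in Flk cells (-1.22 by limma, SE 0.39, adjusted p = 0.193). Between Fli1 cells of 28 and 24 hpf 4 of 29 were 2-fold lower and 1 higher, against 11.4% and 7.29% of all probes. The share of lower genes was thus near that of all probes. Among the lower ones were rrm1, the large subunit of ribonucleotide reductase, and the cohesin genes smc3 and rad21a. The higher one was the thymidylate synthase gene tyms. On rrm1 the signal was 9.45 and 10.24 in whole embryos, 9.45, 9.89 and 8.16 in Fli1 cells, the last not above background, and 10.02 in Flk cells, which made rrm1 at least 3.11-fold lower at 28 than at 24 hpf. On tyms, whose enzyme also supplies DNA precursors, the signal in Fli1 cells was 8.88 at 28 hpf and not above background at 24 hpf (7.62), at least 1.53-fold higher at 28 hpf.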

How the data were processed

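Arrays were 1-colour with Cy3, after 2 rounds of RNA amplification per the labels' protocols. Per the file headers, the deposited scanner files hold spot and background intensity at 3 scan settings, a joined and a scaled intensity, and a flag score per spot. The scanner, the image software and the flag codes are not given in the sources used here. The deposited value table equalled the scaled intensity to within 4.3e-07, with column medians of 0.801 to 0.922 on a linear scale, uncentred. Intensity at setting 55 was corrected with normexp (offset 50) and quantile normalized in limma 3.58.1 (R 4.3.3), and 68 flagged probes were left out afterwards. Symbols came from RefSeq (GRCz12tu) for 8355 probes, by accession for 77 of 87 members and by a shared description for 3, and 7 keep their description as name.

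Members and lists were chosen with earlier results of these data known. Fits ran on probes. Named members were replication and mitosis members above background, the 10 largest differences of the fraction fit, up to 10 members 2-fold different per pair, genes with several probes, and listed pathway genes 2-fold different at both stages, of which ndc80 was the only one. The genes rrm1, smc3, rad21a and tyms, and other members named for contrast, were chosen after their values were seen. On simulated data for the fraction comparison (7602 probes), limma found 8% of the 2-fold changes, 79% of the 4-fold and 100% of the 8-fold ones. With single arrays per condition, the number of arrays limits the precision.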

Additional observations from a re-analysis of the deposited data

Results flagged for a closer look

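Among 63 member probes above background on at least 1 sorted array, 4 had a sorted array far from the other 3 of that fraction. This count is near the rate of about 1 in 20 that chance alone gives among replicates. The sorted arrays differ in stage and line and are not replicates, so that rate is no measure here. The share over all probes is not given, and the 4 are listed as they stand. On rfc4 probe B the Fli1 array at 28 hpf read 7.59, not above background, against 8.37 to 8.45 on the others. On plk1 probe A the Fli1 array at 24 hpf read 9.92 against 11.19 to 11.31. On cyclin G1 the Fli1 array at 28 hpf read 7.71, not above background, against 10.27 to 10.63. On rfc3 probe B the Fli1 array at 18 hpf read 7.69, not above background, against 8.21 to 8.26.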

How the results depend on the processing

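No pairing of replicates was possible because each condition had 1 array. Arrays were paired by stage instead, in the fit of Fli1 and whole-embryo arrays of 18 and 24 hpf that had stage as a block. In the fraction fit 0 members were higher under every alternative run. Lower were 0, except 2 with the authors' scaled intensity and 1 with the 4 stage-matched arrays, and leaving out any single array gave 0. All probes called were 5 higher and 64 lower. Lower were 113 when scaled to the 75th percentile, 149 with the authors' scaled intensity, 12 of the probes above background on all 6 arrays and 36 with stage as a covariate and Flk at 24 hpf. Leaving out 1 array gave 0 to 10 higher and 12 to 64 lower, the fewest without Fli1 cells of 18 hpf (12) and whole embryos of 24 hpf (27). The stage-matched arrays gave 38 higher and 111 lower.

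Counts of 2-fold members moved by over 1.5 times as follows. For Fli1 cells against whole embryos at 18 hpf (3 higher, 12 lower), 0 were higher with the authors' scaled intensity, 1 higher and 3 lower with members above background on all 6 arrays, and 1 and 7 with 1 probe per gene. At 24 hpf (7 lower), 4 were lower with either of these restrictions. For Flk cells against whole embryos (4 and 5), 2 were higher with the authors' scaled intensity, 0 and 2 on all 6 arrays, and 2 and 3 against the 24 hpf embryos. For Flk against Fli1 cells (5 and 1), the counts were 8 and 0 when scaled to the 75th percentile, 9 and 0 with the authors' scaling, 0 and 0 on all 6 arrays, 2 higher with 1 probe per gene, and 0 lower against the 24 hpf Fli1 cells. For Fli1 cells at 24 against 18 hpf (3 and 4), 0 were lower under both scalings, 0 were higher on all 6 arrays, and the counts were 1 and 2 with 1 probe per gene. For 28 against 24 hpf (4 and 9), 1 was higher under both scalings, 2 and 3 on all 6 arrays, 2 higher against Fli1 cells of 18 hpf, and 2 and 15 against Flk cells. The arrays it was set against and the joined scan settings were added after the data were seen. For whole embryos at 24 against 18 hpf (1 and 1), 2 were higher under 75th percentile scaling, 0 higher on all 6 arrays, and 2 lower with the authors' scaled intensity. In the order quantile, 75th percentile and authors' scaling, higher members made up 30.8%, 9.09% and 11.1% of the different ones at 28 against 24 hpf, 44.4%, 30% and 22.2% for Flk cells against whole embryos, and 20%, 11.1% and 0% for Fli1 cells against whole embryos at 18 hpf.

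The replication minus mitosis gap moved by more than the SD of control spots in 3 cases, to 0.41 for Fli1 cells at 24 against 18 hpf and 0.55 for the whole-embryo stages on all 6 arrays, and to -0.34 for 28 hpf against Fli1 cells of 18 hpf. The causes were not tested, beyond the fewer probes that the filters leave. All 51 named pair differences kept their sign under the 5 settings of normalization and background, although several, those of plk1 among them, ended below 2-fold. They had been picked as the largest differences of these same arrays. With the authors' scaled and the joined values, dim readings were also raised to the lowest signal above background. A change of sign was thus unlikely from the start, and this count is no check on them. Depth here is signal over background, and 22 members were not above the background cut on any array.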
